A study of Mus musculus with 6 samples.

Results

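The small leucine-rich proteoglycans are secreted matrix proteins built around a curved array of leucine-rich repeats, and 10 of their genes are described here in the first branchial arch of the mouse embryo. The genes are Bgn, Dcn and Aspn of class I, Fmod, Lum, Prelp, Kera and Omd of class II, and Epyc and Ogn of class III. They were taken by name from the platform annotation, as probe sets with a single gene symbol, which gave 21 of 45101 probe sets and 10 of the 18194 genes measured. Each gene is represented by its brightest probe set, the one with the highest mean over the 6 arrays. The set was chosen by family name, with the differences between the groups in these same arrays already known, and the probe set of each gene was selected on its mean signal. The members' levels and differences are therefore given as a description and without a test.

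Total RNA of single branchial arches 1 at embryonic day 11.5 was hybridised to arrays with 1 colour, 1 arch per embryo and 1 array per arch. The 3 arrays of the first group carry the genotype label Wnt1Cre Ezh2lox/lox and are called labelled mutant here, and the 3 of the second carry Ezh2lox/lox and are called labelled control. Both groups thus share lox alleles of Ezh2, which encodes the enzyme of Polycomb repressive complex 2 that methylates histone H3 and keeps developmental genes silent. They differ by label in the Wnt1Cre transgene, which is active in the neural crest lineage. Arch epithelium, vessel endothelium and the muscle core do not come from that lineage, so by design they keep Ezh2 in both groups. All signals are on a log2 scale. Array values ran from 2.63 to 14.68 with a 25th percentile of 4.33 and a median of 5.81, and a gene below the 25th percentile is called dim here.

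Members of this family bind collagen fibrils and set their spacing and thickness, and several of them also hold growth factors of the TGF-beta and BMP families in the matrix. Many carry sulphated sugar chains, chondroitin or dermatan sulphate on class I proteins such as decorin and biglycan, and keratan sulphate on class II proteins such as lumican and keratocan. In the face and jaws they are known from the connective tissue, tendon, cornea, cartilage and bone that form from crest-derived mesenchyme after the stage studied.

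The labels were checked first. Ezh2 read 11.66 ± 0.01 in labelled-mutant and 11.63 ± 0.15 in labelled-control arches (SD, n = 3 each), and since the place of its probe set in the gene is not known here, this checks nothing about the deletion. Xist, the RNA of the inactive X chromosome, read 13.03 ± 0.10 in labelled-mutant and 5.62 ± 0.15 in labelled-control arches, and the Y-linked gene Kdm5d read 2.95 ± 0.13 in labelled-mutant and 9.18 ± 0.06 in labelled-control arches. Every labelled-mutant array therefore had the female pattern and every labelled-control array the male one, so that sex and genotype of the embryos cannot be told apart. Hoxa9, a Polycomb target that is silent in the normal jaw arch, read 4.21 ± 0.36 in labelled-mutant and 11.28 ± 0.37 in labelled-control arches, whereas loss of Ezh2 is known to raise such targets. Every direction below is the one that the labels give. Whether the genotype labels of the groups were exchanged could not be settled here, and such an exchange would turn the sign of every difference given.

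The family lies in small gene clusters. In the mouse gene table, Dcn, Lum, Kera and Epyc follow each other on chromosome 10, Aspn, Omd and Ogn on chromosome 13 next to Ecm2, and Prelp and Fmod on chromosome 1 next to Optc, with 0 other protein-coding genes between neighbours. Bgn lies on chromosome X outside such a cluster, with 322 protein-coding genes between it and the further family gene Nyx. Start-site windows of 300 bases (250 before and 50 after the start, RefSeq, GRCm38.p6) were at hand for 8 of the 10 members, Lum and Dcn not among them. Several of them are printed here with every CpG dinucleotide in capitals, because Polycomb repressive complex 2 is known to gather at CpG-rich promoters: Ogn, with a large difference between the groups, Kera, with a smaller one, and Bgn, the member richest in CpG among these 8. Ogn lies at chr13:49607765-49608064, Kera at chr10:97606955-97607254 and Bgn at chrX:73483351-73483650, all on the plus strand.
Ogn: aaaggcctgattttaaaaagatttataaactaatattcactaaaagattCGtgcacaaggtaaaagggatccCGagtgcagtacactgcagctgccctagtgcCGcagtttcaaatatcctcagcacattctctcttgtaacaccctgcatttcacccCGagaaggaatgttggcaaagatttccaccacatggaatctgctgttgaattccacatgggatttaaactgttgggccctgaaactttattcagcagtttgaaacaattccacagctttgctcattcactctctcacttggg
Kera: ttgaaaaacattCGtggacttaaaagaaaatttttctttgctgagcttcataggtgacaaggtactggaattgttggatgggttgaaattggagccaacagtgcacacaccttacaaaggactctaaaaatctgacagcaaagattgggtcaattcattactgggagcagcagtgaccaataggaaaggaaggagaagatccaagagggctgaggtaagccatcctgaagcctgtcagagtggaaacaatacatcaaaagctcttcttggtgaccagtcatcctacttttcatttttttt
Bgn: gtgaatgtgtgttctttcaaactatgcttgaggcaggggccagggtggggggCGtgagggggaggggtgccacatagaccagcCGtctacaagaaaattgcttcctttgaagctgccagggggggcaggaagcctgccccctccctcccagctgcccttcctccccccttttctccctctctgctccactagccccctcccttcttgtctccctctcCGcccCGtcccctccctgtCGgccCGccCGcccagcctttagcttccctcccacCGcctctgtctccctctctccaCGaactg

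The Ogn window held 4 CpG, the Kera window 1 and the Bgn window 9. Over the 9 windows of the 8 members (Epyc has 2) the count ran from 1 to 9 with a median of 3, against a median of 7 and quartiles of 3 and 20 over all 32851 windows in the table, and 7 of the 9 lay under that median. The E-box letters CANNTG, which read the same on both strands, were present in 7 of 9 windows, 4 times in Ogn and 0 times in Kera and Omd, while 72.3% of all windows held them. The letters TATAAA on either strand were found in the Aspn and Ogn windows, against 13.6% of all windows. In Ogn the forward and the reverse match overlap and lie in the stretch that reads tttataaa. These matches describe letters only.

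Lum and Ogn had the lowest labelled-mutant signals relative to the labelled-control ones. Lum, the gene of lumican, a keratan sulphate proteoglycan that organises collagen fibrils in cornea and skin, read 9.00, 8.09 and 8.22 in the labelled-mutant arches 1, 2 and 3, against 9.61, 10.05 and 10.69 in the labelled-control arches. The groups did not overlap, and labelled-mutant array 1 and labelled-control array 1 stood nearest to each other. The means were 8.44 ± 0.49 in labelled-mutant and 10.12 ± 0.55 in labelled-control arches (SD, n = 3 each), a log2 difference of -1.68 with a standard error of 0.30, or 3.20-fold lower. In bulk tissue such as this, fewer cells of a type and less RNA per cell cannot be told apart.

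Ogn, the gene of osteoglycin (mimecan), which takes part in collagen fibril assembly, read 4.46, 3.76 and 4.18 in labelled-mutant arches, against 5.15, 5.61 and 5.79 in labelled-control arches. All 3 labelled-control arrays lay above all 3 labelled-mutant arrays, of which arrays 2 and 3 were dim. The log2 difference was -1.39 with a standard error of 0.20, and the fold of 2.61 rests on dim signals in labelled-mutant arches. A further, dimmer probe set of Ogn read 4.04 ± 0.23 in labelled-mutant and 4.40 ± 0.11 in labelled-control arches, a log2 difference of -0.36, also without overlap.

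Dcn, the gene of decorin, which binds collagen and TGF-beta and is known to dampen the receptors Egfr and Met, was more variable. Its signal was 6.98, 6.54 and 6.72 in labelled-mutant arches and 6.74, 7.65 and 7.94 in labelled-control arches. Labelled-control array 1 lay among the labelled-mutant arrays, so the groups overlapped, while labelled-control arrays 2 and 3 were higher than every labelled-mutant array. The log2 difference of -0.69 had a standard error of 0.27, and it was -1.05 without labelled-control array 1 and -0.44 without labelled-control array 3. The second probe set of Dcn was dim on all 6 arrays and gave a log2 difference of 0.02.

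Bgn, the gene of biglycan, the nearest relative of decorin in class I, was bright and nearly level. It read 9.81, 9.73 and 9.71 in labelled-mutant arches, against 9.88, 9.88 and 9.88 in labelled-control arches. The groups did not overlap, yet the log2 difference was only -0.13 with a standard error of 0.07, and the further probe sets gave -0.08 and -0.11, the first of these with overlapping groups. Bgn is X-linked, and every labelled-mutant array has the female pattern, so for this member too sex and label cannot be told apart. Aspn, the gene of asporin, a class I protein that carries no sugar chain of this kind and binds TGF-beta, was dim on all 6 arrays with both probe sets. They gave log2 differences of -0.17 with overlapping groups and -0.39 without overlap, and such signals hold mostly background.

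Of the class II genes other than Lum, Kera was lower and Omd and Prelp were slightly higher. The probe sets of Fmod lay on both sides of 0. Kera, the gene of keratocan, a keratan sulphate proteoglycan of the cornea, read 4.50, 4.16 and 4.27 in labelled-mutant arches, against 4.68, 4.62 and 4.93 in labelled-control arches. The groups did not overlap and differed by -0.44 on the log2 scale with a standard error of 0.12, with 2 labelled-mutant arrays dim. Omd, the gene of osteomodulin, a keratan sulphate proteoglycan of bone, read 4.72, 4.83 and 4.76 in labelled-mutant arches, against 4.27, 4.57 and 4.64 in labelled-control arches. It was the member with the highest difference, 0.28 with a standard error of 0.11, again without overlap. Labelled-control array 1 was dim for Omd, and the difference was 0.16 without this array.

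Fmod and Prelp had overlapping groups. Fmod, the gene of fibromodulin, a collagen-binding protein of tendon and cartilage, had log2 differences between -0.15 and 0.10 over its 6 probe sets, and all 6 overlapped between the groups. The brightest read 6.78 ± 0.09 in labelled-mutant and 6.69 ± 0.43 in labelled-control arches (SD, n = 3 each). Within the labelled-control arches it ran from 6.34 to 7.17, a wider range than the 6.68 to 6.84 of the labelled-mutant arches. Prelp, whose protein is known to anchor basement membranes to collagen, read 5.60 ± 0.20 in labelled-mutant and 5.40 ± 0.10 in labelled-control arches, a log2 difference of 0.20 with a standard error of 0.11. Its second probe set was dim on all arrays and gave 0.09.

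Epyc, the class III gene of epiphycan, a dermatan sulphate proteoglycan of growth-plate cartilage, was dim on every array. It read 3.79, 3.72 and 3.74 in labelled-mutant arches, against 3.52, 3.49 and 3.57 in labelled-control arches, a log2 difference of 0.23 with a standard error of 0.07 and no overlap. When each array's lowest 20 percent of values were raised to their upper limit (a floor), the difference was 0.000667, so it lies wholly within the lowest part of the scale.

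**Figure D1:**
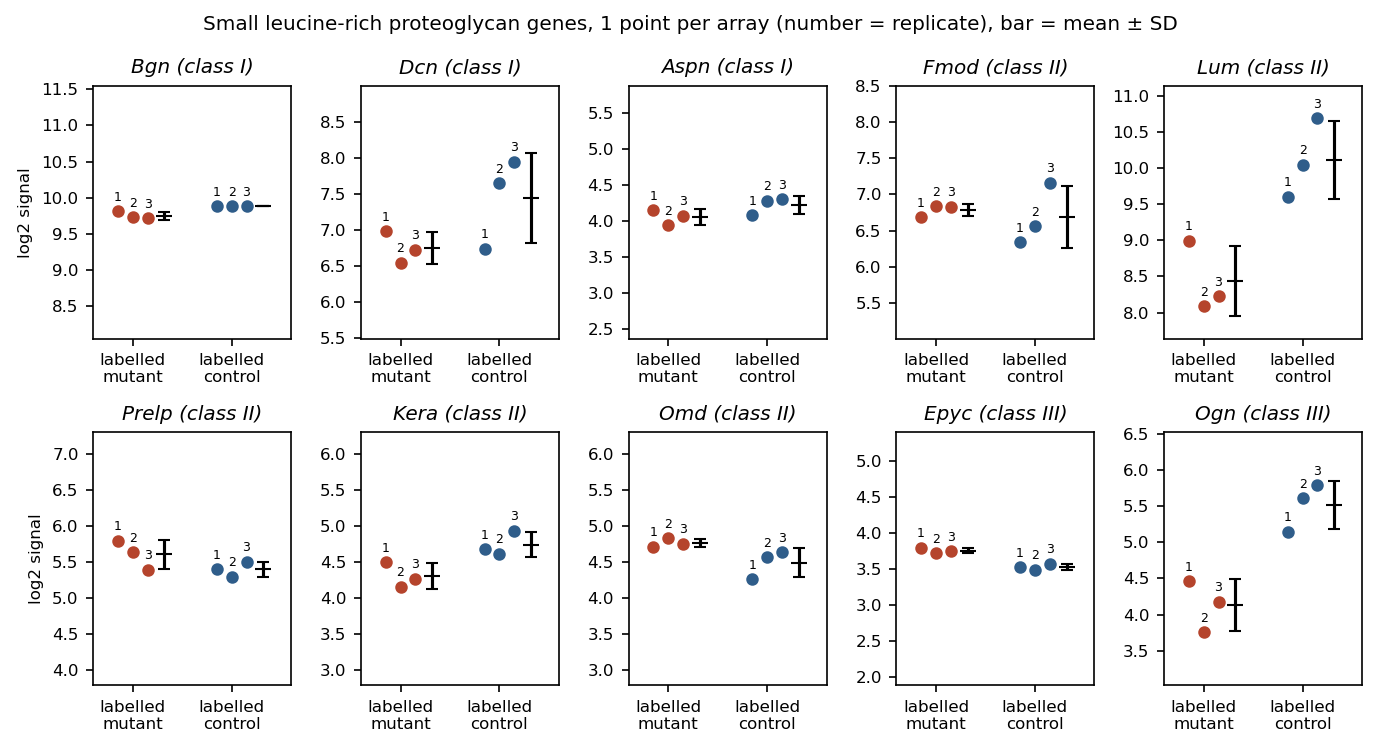
Log2 signal of the 10 family genes on each array, labelled mutant (left) and labelled control (right), with the replicate number above each point and the mean ± SD beside the points. Every panel spans the same height of 3.5 log2 units around its own centre. Lum (8.09 to 9.00 against 9.61 to 10.69) and Ogn (3.76 to 4.46 against 5.15 to 5.79) do not overlap between the groups. Dcn overlaps because labelled-control array 1 reads 6.74.

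The 10 genes did not share 1 direction. Their log2 differences ran from -1.68 to 0.28 with a median of -0.15, against a median of 0.02 over all 18194 genes, and 6 of 10 were below 0. The 3 class I genes were below 0, while classes II and III each held both signs. On chromosome 10, Dcn, Lum and Kera were below 0 and their neighbour Epyc above it. On chromosome 13, Aspn and Ogn were below 0 and Omd, which lies between them, above it. In the fit across all genes (limma, Benjamini-Hochberg adjusted p of 0.05 as the threshold) 2 of 10 members, Lum and Ogn, were past the threshold as lower and 0 as higher (at an unadjusted p of 0.05 there were 6, with 2 higher), where 4.3% of all genes were lower and 1.23% higher. Groups did not overlap for 4 members that were lower (Bgn, Lum, Kera and Ogn) and 2 that were higher (Omd and Epyc), where 11.9% and 13% of all genes stood apart in these directions. Since the members were chosen with this contrast known, nothing is read from these counts. They also rest on single arrays. Only Ogn was past the threshold without labelled-mutant array 2, labelled-mutant array 3 or labelled-control array 2. Lum missed it in these fits with log2 differences of -1.50, -1.57 and -1.71. The count over all genes also fell in them, from 1007 to 481, 435 and 551. Dcn was added without labelled-control array 1, giving 3. With floored signals 0 members were past it, although the floor alters no signal of Lum (4 of 10 were at an unadjusted p of 0.05).

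**Figure D2:**
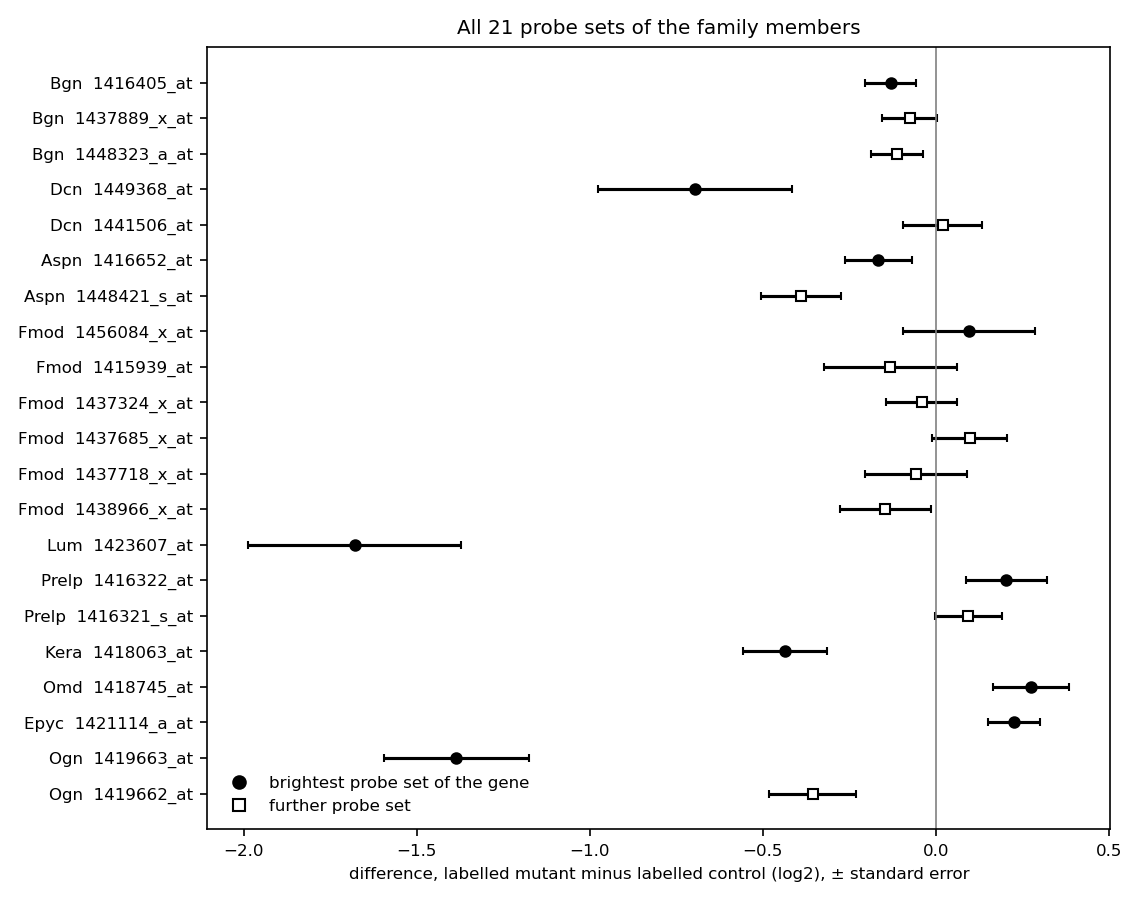
Log2 difference, labelled mutant minus labelled control, for all 21 probe sets with the standard error from the fit across all single-symbol probe sets as whiskers, filled circles for the probe set that represents the gene and open squares for the others. The single probe set of Lum at -1.68 and the brightest of Ogn at -1.39 lie farthest from 0, and the second probe sets of Ogn (-0.36) and Dcn (0.02) lie much nearer to it.

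Lum, Ogn and Dcn shared an order of arrays that the group means hide. In each of these genes labelled-mutant array 1 was the highest and array 2 the lowest of the labelled-mutant arches, and labelled-control array 3 was the highest and array 1 the lowest of the labelled-control arches. Aspn, dim on all 6 arrays, had the same order, as did the mean signals of 3 of 11 lists of cell type markers described below. The share of all genes with this order was not counted. The likeness of profiles was measured as the root mean square difference between the signals of a pair of genes over the 6 arrays, each centred on its own mean. It was 0.25 log2 units between Lum and Ogn, 0.39 between Ogn and Dcn and 0.54 between Lum and Dcn, and 0.35 between Dcn and Kera. The distance reflects the size of the group difference as well as the order of arrays.

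Among 16304 other named genes, the nearest to Ogn was Lox, the gene of lysyl oxidase, which cross-links collagen and elastin, at a distance of 0.067. Lox read 8.22, 7.49 and 7.86 in labelled-mutant arches, against 9.00, 9.31 and 9.42 in labelled-control arches. Penk, the gene of proenkephalin, and Slc14a1, a urea transporter gene, followed at 0.088 and 0.12. Nearest to Lum were Tmem26, which encodes a transmembrane protein, Cdo1, the gene of cysteine dioxygenase, and the secreted-protein gene C1qtnf4, at 0.12, 0.13 and 0.17. Tmem26 read 8.57, 7.94 and 7.98 in labelled-mutant arches, against 9.47, 9.82 and 10.27 in labelled-control arches. Nearest to Dcn were Adamts5, the gene of a protease that cleaves large proteoglycans, at 0.091, the amino acid transporter gene Slc38a5 at 0.099, and Kel, a gene of a red cell surface protein, at 0.12. Adamts5 overlapped between groups as Dcn did, with 5.52, 5.06 and 5.16 in labelled-mutant arches and 5.37, 6.07 and 6.29 in labelled-control arches. These genes were picked for their likeness, so their own differences are a description, and other probe sets of Lox, C1qtnf4 and Adamts5 gave log2 differences as small as -0.22, -0.08 and -0.03.

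**Figure D3:**
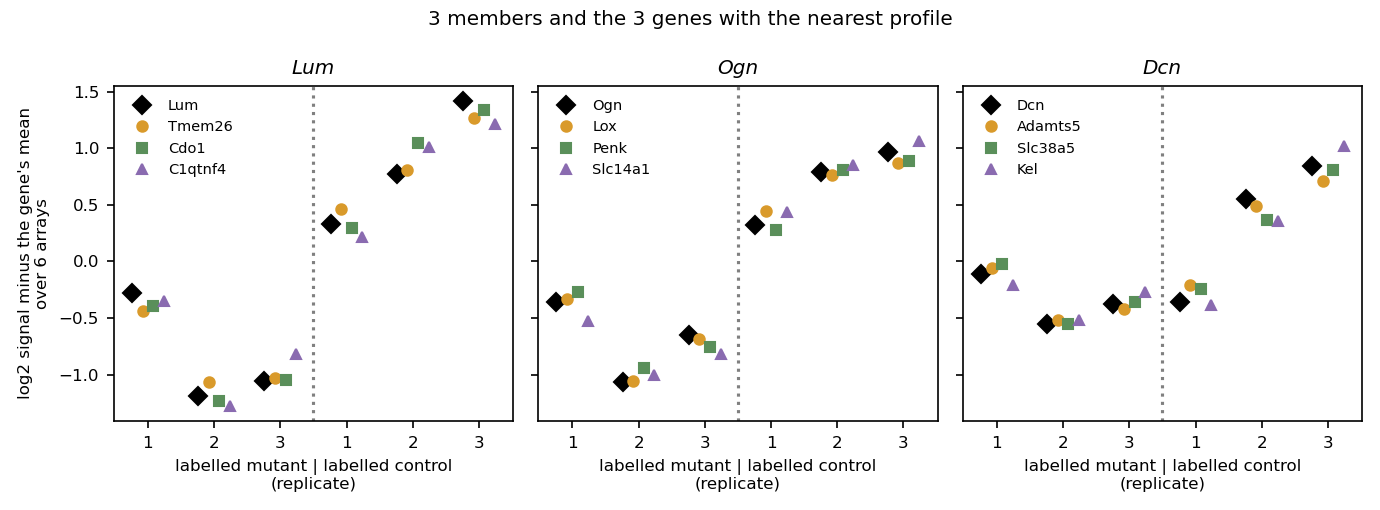
Log2 signal minus the gene's own mean over 6 arrays for Lum, Ogn and Dcn (black diamonds) and the 3 genes nearest to each, by array, labelled mutant left of the dotted line and labelled control right of it. In all 3 panels labelled-mutant array 1 is the highest of its group and labelled-control array 1 the lowest of its group for the member shown, and the nearest genes lie within 0.17 log2 units of it on root mean square.

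Genes of the pathway that were not chosen as members were tested in the same fit. Their lists, too, were chosen with earlier results of these data known. The counts and adjusted p-values here and in the next paragraphs therefore describe these arrays and are no independent test. The collagens that these proteins bind were mostly lower in the labelled-mutant arches. Of 13 fibrillar and fibril-associated collagen genes, 10 fell and 1 rose, while 2 missed the threshold. The median log2 difference was -0.74, where 5.53% of all genes passed. Col14a1, a fibril-associated collagen gene, read 4.75, 4.88 and 4.94 in labelled-mutant arches, against 6.23, 6.62 and 6.41 in labelled-control arches, and fell by 1.56 on the log2 scale (limma, Benjamini-Hochberg adjusted p = 1.45e-04). No array of either group came near the other group for this probe set, but further probe sets of Col14a1 gave differences up to 0.003.

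The major fibril collagens changed by less. Col3a1 read 12.83 ± 0.09 in labelled-mutant and 13.47 ± 0.06 in labelled-control arches (limma, Benjamini-Hochberg adjusted p = 0.00328), and Col1a2 read 12.69 ± 0.18 in labelled-mutant and 13.48 ± 0.14 in labelled-control arches (limma, adjusted p = 0.00577). All probe sets of these 2 genes had log2 differences from -0.96 to -0.64. Col2a1, the fibril collagen of cartilage, was the 1 that rose, with 10.11 ± 0.08 in labelled-mutant and 9.61 ± 0.08 in labelled-control arches (limma, adjusted p = 0.0098). The size of this count at the adjusted threshold depends on single arrays. It was 3 of 13 without labelled-mutant array 2, 3 without labelled-mutant array 3, and 6, 7 and 7 without labelled-control arrays 1, 2 and 3. With floored signals it was also 3.

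The other genes of the family, which lie partly in the same clusters, did not pass. Of 6 measured, 0 passed with limma (at an unadjusted p of 0.05 there were 2, with 1 higher), where 5.53% of all genes passed. The median log2 difference was -0.02. Podn, the class V gene of podocan, a collagen-binding protein, read 7.11 ± 0.10 in labelled-mutant and 6.82 ± 0.04 in labelled-control arches, a difference of 0.29 that missed the threshold (limma, Benjamini-Hochberg adjusted p = 0.085). Chadl, a relative of the cartilage gene chondroadherin, had a difference of -0.24 and Chad itself -0.08. Ecm2, the cluster neighbour of Aspn, had -0.07 and Optc, the neighbour of Prelp and gene of the eye protein opticin, 0.02. Nyx, the X-linked gene of a retinal member, had 0.03. Ecm2 and Chad were dim on all arrays.

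Enzymes that build and sulphate the sugar chains mostly did not pass. The median log2 difference of 24 genes was -0.06. Of these genes, 23 missed the threshold, 1 fell and 0 rose (4.17% past it, near the 5.53% of all genes). The 1 was Chsy3, a chondroitin synthase gene, at 3.00 ± 0.05 in labelled-mutant and 3.62 ± 0.20 in labelled-control arches (limma, Benjamini-Hochberg adjusted p = 0.012). It was dim on all 6 arrays, and 0 of 24 passed without labelled-mutant array 2 (4 at an unadjusted p of 0.05) or without array 3 (6). Chst1, a keratan sulphate sulphotransferase gene, had a log2 difference of -0.48 (limma, adjusted p = 0.072) and joined Chsy3 past the threshold without labelled-mutant array 1. Ust, a sulphotransferase gene for dermatan and chondroitin sulphate, had 0.26 (limma, adjusted p = 0.078), with another probe set at -0.17. With floored signals Ust was past the threshold as higher (limma, adjusted p = 0.025) and Chsy3 was not.

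Among ligands, receptors and proteases known to bind or cleave these proteins, 5 of 17 fell, 1 rose and 11 did not pass, with a median of -0.14. This put 35.3% past the threshold, against 5.53% of all genes. Met, a receptor that decorin is known to bind, read 7.05 ± 0.11 in labelled-mutant and 7.71 ± 0.04 in labelled-control arches (limma, Benjamini-Hochberg adjusted p = 0.00298). Bmp1, the protease that removes the propeptides of biglycan, osteoglycin and fibrillar procollagens, read 8.85 ± 0.03 in labelled-mutant and 9.38 ± 0.02 in labelled-control arches (limma, adjusted p = 0.0038). Egfr fell by 0.63 on the log2 scale (limma, adjusted p = 0.023), but was past the threshold in only 1 of the 6 fits that leave out an array. When the probe sets of each gene were averaged, all 3 missed it (limma, adjusted p = 0.085, 0.068 and 0.64). The growth factor gene Tgfb2 and the membrane protease gene Mmp14 were the other 2 that fell, by 0.88 and 0.62, and Tlr4, an innate immune receptor that biglycan is known to bind, was the 1 that rose, with 4.41 ± 0.004 in labelled-mutant and 4.10 ± 0.02 in labelled-control arches. Tlr4 was dim on all 3 labelled-control arrays, and its call was lost when its 4 probe sets were averaged and when the replicate number entered as a block (limma, adjusted p = 0.19 and 0.13). Of the 6 fits that leave out an array, 2 kept Tgfb2 past the threshold, 1 kept Mmp14 and 1 kept Tlr4. The count was 3 of 17 without labelled-mutant array 2, 2 without labelled-mutant array 3, 2 without labelled-control array 2 and 3 without labelled-control array 3.

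Of the proteoglycans outside the family, 3 of 18 were lower, 0 higher and 15 not passed, with a median of -0.10. This put 16.7% past the threshold, against 5.53% of all genes. Sdc2, a cell-surface heparan sulphate proteoglycan gene, read 9.41 ± 0.11 in labelled-mutant and 10.06 ± 0.14 in labelled-control arches (limma, Benjamini-Hochberg adjusted p = 0.00759). Ncan, the neurocan gene of nervous tissue, fell by 0.62 (limma, adjusted p = 0.011), and Sdc1, a syndecan gene of epithelia, by 0.34 (limma, adjusted p = 0.046). Without labelled-mutant array 3 only Sdc2 remained, and Sdc1 missed the threshold in each of the 6 fits that leave out an array. When the probe sets of each gene were averaged, 0 of 18 passed (limma, 4 at an unadjusted p of 0.05).

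**Figure D4:**
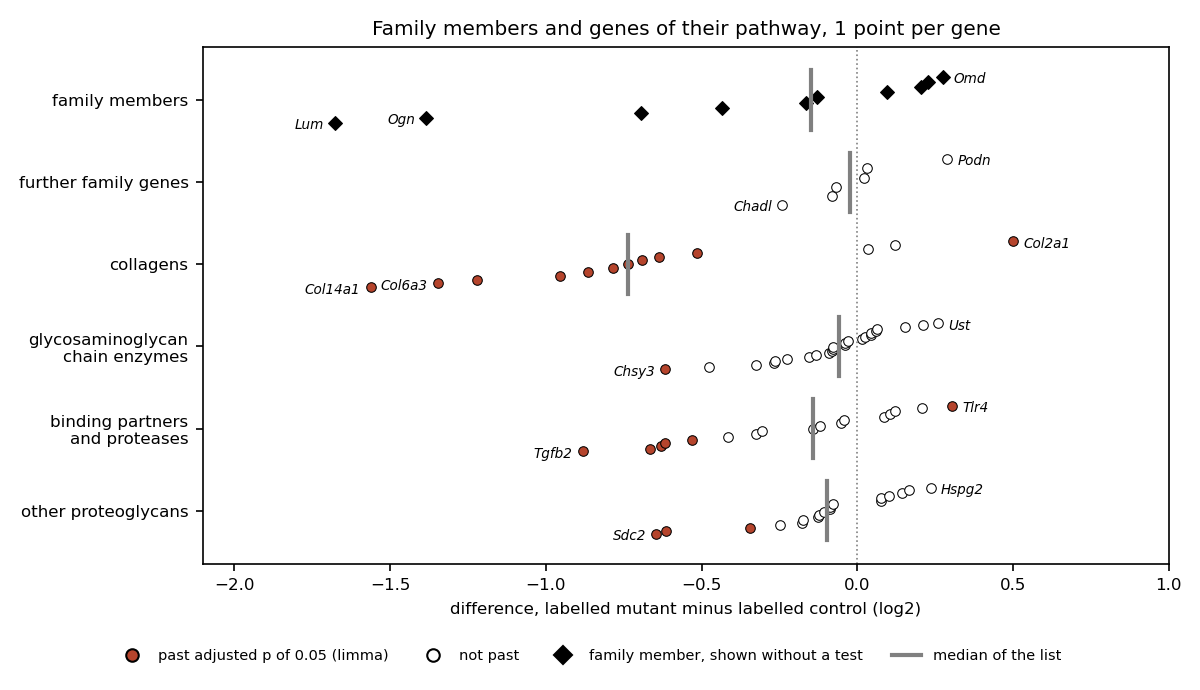
Log2 difference, labelled mutant minus labelled control, of the family members (diamonds, shown without a test), of 6 further family genes and of 4 lists of related genes (circles, filled where past a limma adjusted p of 0.05), with each list's median as a grey bar. The collagens centre on -0.74 and reach -1.56, while the further family genes centre on -0.02 and the chain enzymes on -0.06.

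Markers of some cell types also differed between the groups, in both directions. All 10 arch mesenchyme genes, among them Dlx5 and Hand2, were above the 25th percentile on every array. The skeletal muscle and neuronal markers all were too, so this cut-off does not check the tissue label. Of the 10 arch mesenchyme genes, 6 were higher and 1 lower in labelled-mutant arches, where 1.23% of all genes were higher and 4.3% lower. The mean log2 signal of 6 skeletal muscle markers was 7.42, 6.34 and 6.84 in labelled-mutant arches, against 7.68, 8.14 and 8.09 in labelled-control arches, with 3 of 6 lower (limma, adjusted p under the threshold of 0.05) and 0 below the 25th percentile throughout. The order of the labelled-mutant arrays was that of Lum, Ogn and Dcn, but labelled-control array 2 and not array 3 was the highest of its group. The mean of 6 neuronal markers was 6.14 to 6.41 in labelled-mutant and 7.38 to 7.50 in labelled-control arches, with 4 of 6 lower. The part of these cells in the differences of the family members was not tested.

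Markers of the connective tissues in which the family is known to be abundant gave no common direction. Over all genes, 4.3% were lower and 1.23% higher at the same threshold. Of 3 tendon markers 1 fell, Scx, and the list mean was 5.40 to 5.74 in labelled-mutant and 5.74 to 5.79 in labelled-control arches, with Tnmd dim on all arrays. Of 6 cartilage markers 2 rose and the mean was 7.71 to 7.83 in labelled-mutant and 7.04 to 7.44 in labelled-control arches, with Matn1 dim throughout. Of 3 osteoblast markers 0 passed with limma (0 at an unadjusted p of 0.05), and Ibsp was dim. Of 6 smooth muscle and pericyte markers 1 fell, Acta2, with a log2 difference of -1.41. Rgs5 had a difference of 1.18 without overlap but missed the threshold (limma, adjusted p = 0.13). These opposite differences offset each other in the list means, which were 7.56 to 7.78 in labelled-mutant and 7.55 to 7.88 in labelled-control arches. Cnn1 was dim. The list means of epithelial markers (1 of 7 higher, means 8.99 to 9.18 in labelled-mutant and 8.81 to 9.49 in labelled-control arches) and of endothelial markers (0 of 5 with limma, 0 at an unadjusted p of 0.05) overlapped between the groups. Erythroid markers averaged 11.85 to 12.09 in labelled-mutant and 12.08 to 12.55 in labelled-control arches, with 1 of 5 lower, and macrophage markers 6.38 to 6.66 in labelled-mutant and 6.60 to 7.08 in labelled-control arches, with 1 of 5 lower. Of 11 marker lists, 3 had the array order of Lum, Ogn and Dcn in both groups, those of endothelium, erythroid cells and macrophages. Their part in the family members' differences was not tested.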

How the data were processed

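RNA of 6 arches was measured on 1-colour arrays. The deposited values are log2 signals, 1 per probe set and array. The log2 base was inferred from their range, and the authors had brought all arrays to 1 distribution, since their quantiles differ by at most 0.01. How the background was corrected, probes summarised and with which software is not given in the sources used here. A shift common to all genes cannot be seen after such scaling, detection calls were not used, and precision is limited by having 3 arrays a group.

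Probe sets were named from the platform annotation (34958 with 1 symbol, 932 with several, 9211 without a listed one), and 0 symbols needed an update through a GRCm38.p6 gene table. Differences, labelled mutant minus labelled control, were fitted over 18194 genes with lmFit and eBayes of limma 3.58.1 under R 4.3.3, without covariates or a filter on dim genes, two-sided, with Benjamini-Hochberg adjustment and a threshold of 0.05. The fit was tested on simulated data. The members, the lists and the rule for named genes (all members and other family genes, from each further pathway list the 3 whose moderated t was largest in size, and the 3 nearest profiles to Lum, Ogn and Dcn) were chosen with earlier results of these data known. Marker genes and further list members were named after their values were seen. Alternatives were a replicate block, repeated quantile normalization, median centring, a floor at the 20th percentile, a filter on dim genes, the mean of probe sets, trend and robust settings, and leaving out each array.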

Additional observations from a re-analysis of the deposited data

How the results depend on the processing

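The members' median difference of -0.15 was -0.41 over the 4 members left by a filter at the median signal, which drops Ogn, and -0.19 to -0.11 with 1 array left out. Of 13 alternatives, 7 left 2 members past the threshold, 4 left 1, 1 left 3 and 1 left 0. Repeated quantile normalization and median centring, both among these 7, could hardly change a value, since the arrays already shared 1 distribution. With the mean of its probe sets Ogn fell by 0.87. Of 18194 genes 1007 passed, and 657 did with the replicate number as a block, 329 with floored signals and 435 to 1021 with 1 array left out. The block left 2 of 17 binding partners and proteases past the threshold. Same-numbered arrays deviated from their group means with correlations of -0.21, -0.12 and -0.07, and 0 of 6 arrays correlated best with its own number, so the numbers are not taken to pair embryos. With floored signals 3 collagens, 3 binding partners and 0 other proteoglycans (4 at an unadjusted p of 0.05, limma) passed, and Chsy3, wholly under the floor, had a difference of 0.000667. The filter on dim genes left 0 of 19 chain enzymes (6 at an unadjusted p of 0.05, limma), as it drops Chsy3. The mean of probe sets left 1 binding partner and 0 other proteoglycans. Leaving out 1 array gave 3 to 10 collagens (each time 11 at an unadjusted p of 0.05, limma) and 0 to 2 chain enzymes. It gave 2 to 5 binding partners, 1 to 2 other proteoglycans and 0 further family genes (1 or 2 at an unadjusted p of 0.05, limma). The cause of these changes was not tested, except where a filter or floor removes the gene itself. Over all repeats for single pathway genes, 190 kept direction and side of the threshold, among them all with repeated quantile normalization or median centring. Of the rest, 27 lost the call, 2 gained it and 8 changed sign. Of these 8, only Chsy3 had passed the threshold. Ecm2 was also 0.000667 with floored signals, and with 1 array left out Nyx ran from -0.01 to 0.11 (2 changes of sign), Optc from -0.018 to 0.086 (3) and Chad from -0.17 to 0.085 (1), where the cause was not tested. With 3 arrays a group, dim genes such as Aspn and Epyc, whose signals hold mostly background, cannot show a difference firmly.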
